A study of Mus musculus with 6 samples.

Results

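The genes described here are 41 epithelial genes of the kidney tubule and glomerulus, read in RNA sequencing of lymphocytes sorted from kidney. They were named gene by gene for the segment of the nephron that makes them, and 40 of the 41 were among the 23841 genes of the count table. Only Nphs1, which codes for nephrin of the podocyte slit diaphragm, was not found among them. By segment, the 40 comprised 18 proximal tubule genes, 8 genes of tubular epithelium at large, 4 of the principal cell of the collecting duct, 3 of the distal convoluted and connecting tubule, 3 of the intercalated cell and 2 of the thick ascending limb. A further 2 belong to a pair of segments each, Aqp1 and Kcnj1.

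The cells compared were type 1 innate lymphoid cells (ILC1), tissue lymphocytes related to natural killer cells, sorted as CD49a+ CD49b low or intermediate NK1.1+ NKp46+ CD3- cells (3 pools). They were set against conventional NK cells (cNK), which circulate and kill target cells, sorted for high CD49b within the same NK1.1+ NKp46+ CD3- gate (3 pools). Both came from kidney of C57BL/6 mice of wild-type genotype, with no treatment named. Before the sort, digested kidney was passed over Percoll, red cells were lysed, and CD45+ cells were enriched on beads. The number and age of the mice in a pool are not given, nor whether each pool had its own animals, so the spread behind a p-value is that of these pools and may be technical.

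The nephron filters blood at the glomerulus and then recovers most of the filtrate along the tubule. Proximal tubule cells take up glucose, phosphate, amino acids, organic anions and filtered protein, and make glucose from other substrates. The thick ascending limb reabsorbs salt without water and secretes uromodulin, the distal convoluted tubule fine-tunes salt and divalent cations, principal cells of the collecting duct move water and sodium under hormonal control, and intercalated cells move acid and base. None of these cells is a lymphocyte, and none is known for NK1.1, NKp46 or CD45, the antigens of the gate and of the bead enrichment.

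The proximal tubule genes and the other genes had different profiles over the libraries, so promoters of both kinds are shown, each as the 250 bases before a transcription start in RefSeq, build GRCm38.p6. They were searched on both strands for the motif of HNF1 (GTTAAT and ATTAAC parted by 1 base of any kind, up to 2 mismatches), a homeodomain factor of most tubule segments, and for that of HNF4 (CAAAGTCCA, up to 1 mismatch), a nuclear receptor of the proximal tubule. Capitals mark the match. The 4 promoters are of Umod (chr7:119479263-119479512, minus strand), Slc12a1 (chr2:125152350-125152599, plus strand), an alternative start of Acsm2 (chr7:119561458-119561707, plus strand) and Slc13a3 (chr2:165473198-165473447, minus strand).
Umod: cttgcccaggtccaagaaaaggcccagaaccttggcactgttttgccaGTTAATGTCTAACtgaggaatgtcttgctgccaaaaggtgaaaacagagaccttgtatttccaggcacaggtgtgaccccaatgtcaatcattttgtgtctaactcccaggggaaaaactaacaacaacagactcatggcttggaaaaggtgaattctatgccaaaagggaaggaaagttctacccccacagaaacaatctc
Slc12a1: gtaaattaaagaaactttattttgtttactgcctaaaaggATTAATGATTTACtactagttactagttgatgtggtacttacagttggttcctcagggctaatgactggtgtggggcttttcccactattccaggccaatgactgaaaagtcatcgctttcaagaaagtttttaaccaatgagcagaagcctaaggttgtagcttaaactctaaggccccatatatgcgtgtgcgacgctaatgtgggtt
Acsm2: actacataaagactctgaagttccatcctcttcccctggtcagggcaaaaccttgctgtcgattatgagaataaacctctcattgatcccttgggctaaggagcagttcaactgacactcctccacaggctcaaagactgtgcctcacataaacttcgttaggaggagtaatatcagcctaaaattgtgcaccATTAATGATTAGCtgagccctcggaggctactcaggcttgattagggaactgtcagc
Slc13a3: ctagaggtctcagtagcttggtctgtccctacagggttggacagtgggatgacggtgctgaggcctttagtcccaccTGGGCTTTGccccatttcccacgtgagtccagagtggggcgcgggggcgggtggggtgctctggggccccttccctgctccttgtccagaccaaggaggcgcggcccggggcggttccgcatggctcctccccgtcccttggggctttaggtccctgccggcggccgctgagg
The HNF1 match lay 202 to 190 bases before the start in Umod, 210 to 198 in Slc12a1 and 57 to 45 in Acsm2, and the HNF4 match of Slc13a3, read on the opposite strand, lay 173 to 165 bases before it. RefSeq promoters were matched for 32 of the genes, with 39 starts. An HNF1 match stood in 1 of 19 proximal tubule promoters (5.26%) and in 2 of 20 promoters of the other genes (10%), where 1.24% of all 32851 promoters had one. An HNF4 match stood in 4 of the 19 proximal tubule promoters (21.1%; Lrp2, Slc13a3 and 2 starts of Ggt1) and in 0 of the other 20, where 7.05% of all promoters had one. A match describes the letters of this window and is not a binding site.

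Depth ran from 22633440 to 28327265 counts a library. Levels below are CPM, the count scaled to a common library total, on which a single count equals 0.0353 to 0.0442. Values of a population are given in the order of pools 1, 2 and 3. By gate, Itga1 (CD49a) had 204, 119.8 and 122 CPM in ILC1 pools and 7.22, 11.4 and 11.8 CPM in cNK pools, and Itga2 (CD49b) had 27.2, 14.9 and 11.8 CPM in ILC1 pools and 163, 63.7 and 79.5 CPM in cNK pools, so the gated antigens followed the labels. Cd3g, of a receptor the gate excludes, had 48.6, 70.4 and 73.0 CPM in ILC1 pools and 7.73, 10.1 and 11.1 CPM in cNK pools. The other CD3 genes did not share that difference in size. Cd3d had 5.26, 5.01 and 10.6 CPM in ILC1 pools and 6.78, 9.96 and 11.8 CPM in cNK pools. Cd3e had 2.12, 1.66 and 4.90 CPM in ILC1 pools and 0.729, 0.456 and 2.29 CPM in cNK pools. The 8 genes that check the gate together held 0.506%, 0.479% and 0.357% of the counts of ILC1 pools and 0.606%, 0.338% and 0.406% of those of cNK pools. The 23 mitochondrial genes held 1.38%, 2.25% and 6.53% in ILC1 pools and 3.15%, 12.7% and 10.35% in cNK pools. The 3 libraries with the highest mitochondrial shares were also those with the highest nephron sums, given next. Markers of macrophages, monocytes and dendritic cells (18 genes) held 0.125%, 0.0646% and 0.259% in ILC1 pools and 0.0464%, 0.0303% and 0.0314% in cNK pools. Summed, 15 endothelial markers held between 0.0103% and 0.0208% in every library, but single markers differed. Pecam1, the most abundant, had 90.7, 51.3 and 57.8 CPM in ILC1 pools and 45.7, 26.3 and 34.9 CPM in cNK pools. Plvap had 4.68, 2.29 and 24.9 CPM in ILC1 pools and 7.69, 33.0 and 16.7 CPM in cNK pools. Emcn was also highest in ILC1 pool 3 and cNK pool 2 of their populations, and Ehd3 in the pools numbered 1. Of the 18 markers of macrophages, monocytes and dendritic cells, 5 were called higher in ILC1 (4.07% of all genes) and 0 in cNK (1.69%). None of the 18 was at 0 in any library. Itgax alone had 469, 242 and 217 CPM in ILC1 pools and 322, 118 and 172 CPM in cNK pools. That was a large part of the 464, 303 and 314 CPM of the 18 in cNK pools. The part of these cells and of RNA quality in the results below was not tested.

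Counts of the nephron genes were present in all 6 libraries. Summed over the 40 genes they reached 1710.3, 1397 and 6838 CPM in ILC1 pools, and 2772, 10395 and 7717 CPM in cNK pools. As a share of the library, the highest sum was 1.04% in cNK pool 2 and the lowest 0.1397% in ILC1 pool 2 (exact Clopper-Pearson 95% interval 0.1383% to 0.1411%, counting error only). The mean was 3315 ± 3055 CPM in ILC1 and 6962 ± 3867 CPM in cNK (SD, n = 3 each), a ratio of 0.476, with the 2 populations overlapping: ILC1 pool 3 lay above cNK pool 1. Without ILC1 pool 3 the ratio was 0.223. Proximal tubule genes alone gave 0.261, and leaving out the 10 genes that leukocytes or endothelium also make gave 0.506. In bulk RNA, fewer cells of a type and less RNA per cell cannot be told apart. Whether these counts came from tubule cells within the pools was not tested.

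**Figure D1:**
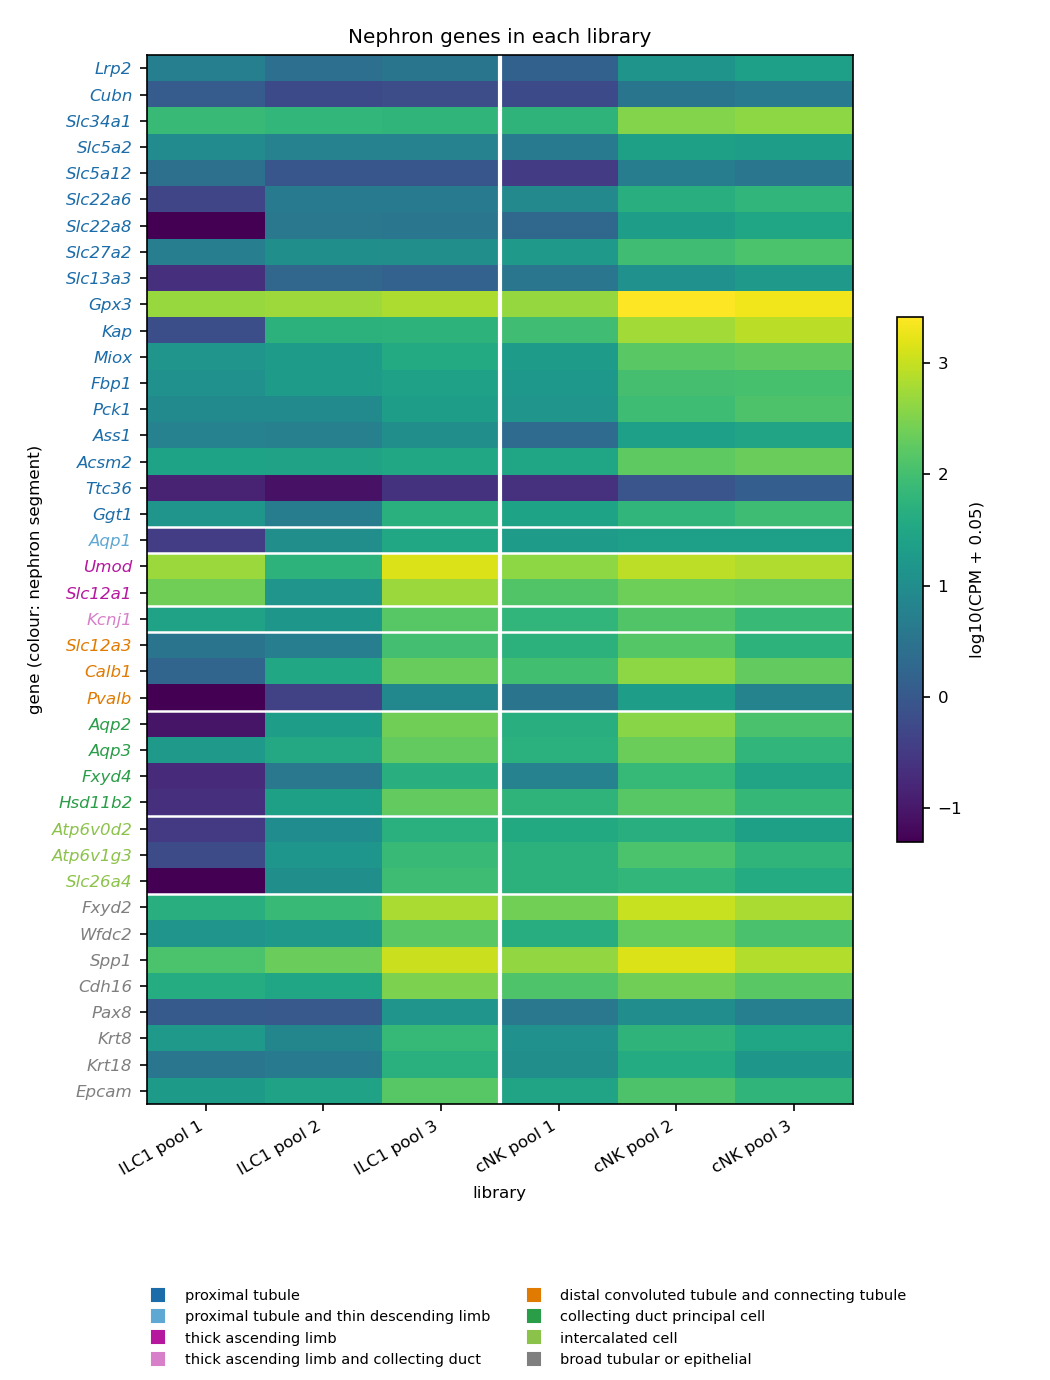
Level of each of the 40 genes (from top to bottom, by segment) in each library (ILC1 pools left of cNK pools), with colour for log10(CPM + 0.05). In ILC1 pool 1, Aqp2, Hsd11b2 and Slc26a4 are near 0 CPM, while Umod and Slc12a1 stand at 495 and 241 CPM in that library.

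Between the populations, no nephron gene passed the threshold of edgeR's quasi-likelihood test (adjusted p under 0.05 over 16144 genes tested). Of the 39 genes that passed the filter on low counts, 0 were called higher in ILC1, where 4.07% of all genes tested were, and 0 were called higher in cNK, where 1.69% of all genes were (5.76% in either direction). At an unadjusted p under 0.05, 0 stood higher in ILC1 (11.4% of all genes) and 11 stood higher in cNK (6.63% of all genes), and all 11 were proximal tubule genes. The fold change (ILC1 over cNK) lay below 0 for 38 of the 39, against 49.2% of all genes, with a median log2 fold change of -1.54 over the 39 and of 0.00961 over all genes. The range ran from -4.03 for Kap to 0.12 for Slc12a1. Without ILC1 pool 3 the median was -2.92, and without cNK pool 2 it was -1.0. The log2 fold change lay under -1 for 27 of the 39 (8.14% of all genes), 17 of them proximal tubule genes. In 4 of the 39 genes (Kap, Slc13a3, Slc22a6 and Slc27a2) all cNK pools lay above all ILC1 pools, where 5.33% of all genes had that order. In 0 of the 39 did all ILC1 pools lie above all cNK pools, where 22% of all genes had that order.

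The count of 0 turned on single libraries and on the tool. DESeq2's Wald test called 9 nephron genes higher in cNK, all of the proximal tubule (Slc27a2, Slc22a6, Slc13a3, Acsm2, Pck1, Slc34a1, Miox, Fbp1 and Gpx3), where it called 4.3% of all genes in that direction, and 0 higher in ILC1 (7.16%). limma-voom called 0 in either direction (5.75% of all genes, 1.75% higher in cNK). Without cNK pool 1, edgeR called 11 higher in cNK (1.81% of all genes tested), again all of the proximal tubule. Without ILC1 pool 3 it called 9, while the share of all genes called in that direction was 4.03%, above the 1.69% with every library. Of these 9, Ggt1 alone was a proximal tubule gene and the other 8 were Slc12a3, Pvalb, Kcnj1, Cdh16, Pax8, Fxyd2, Wfdc2 and Spp1. Without both ILC1 pool 3 and cNK pool 2, whose sums were the highest of their populations, it called 9 (2.67% of all genes), none of the proximal tubule. Without both pools numbered 1 it called 15 (2.24% of all genes), all of the proximal tubule. No setting called a nephron gene higher in ILC1.

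**Figure D2:**
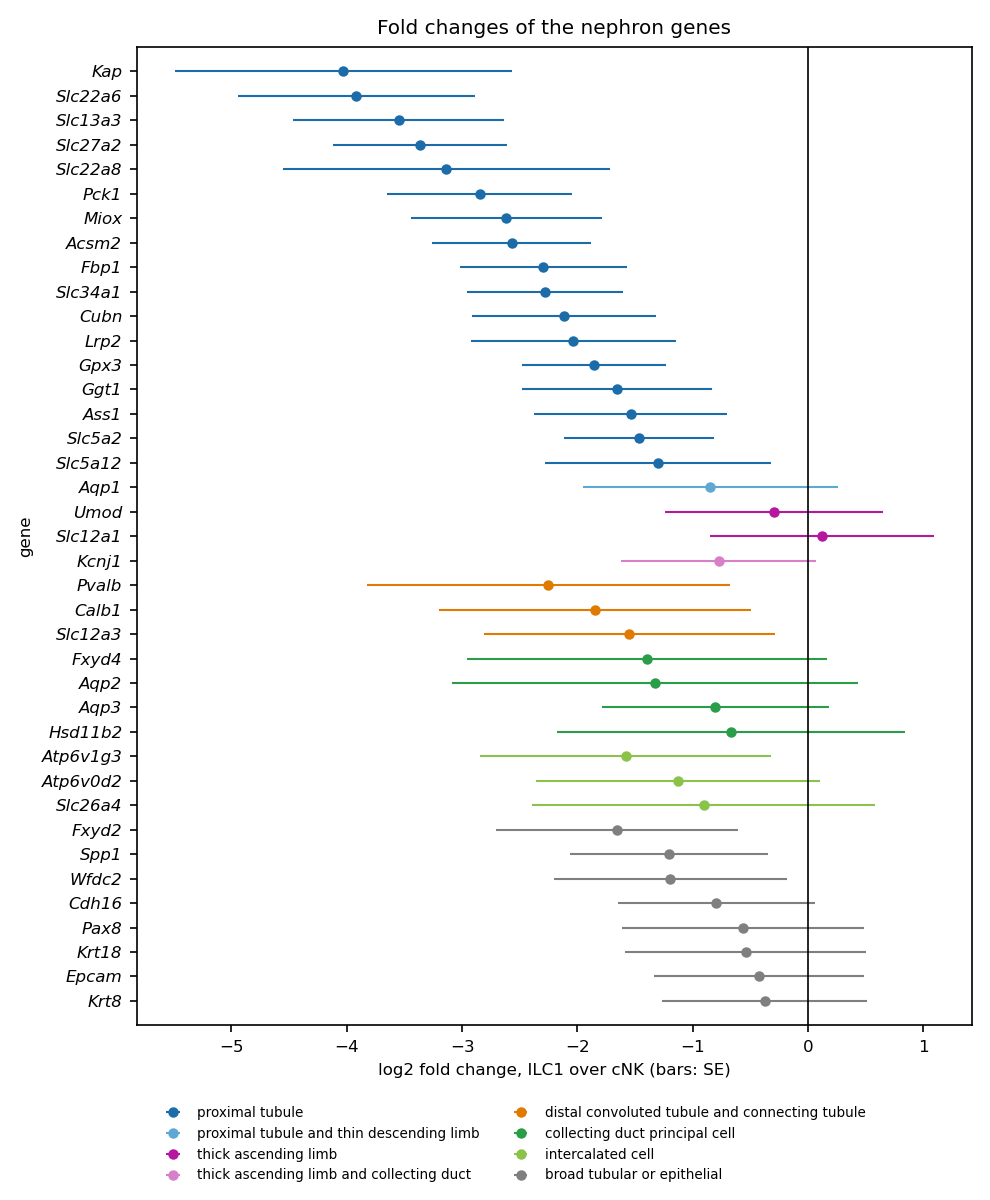
Log2 fold change of ILC1 over cNK (horizontal axis, points, with bars of 1 standard error) for the 39 genes tested, grouped by segment. The 17 proximal tubule genes lie between -4.03 and -1.31, and the thick ascending limb pair lies at -0.30 and 0.12.

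In edgeR's main fit, proximal tubule genes had the lowest median fold change of the segment groups. That order depended on the tool. With limma-voom the distal convoluted tubule genes Slc12a3, Calb1 and Pvalb had -2.90, -3.32 and -4.31, below the median of -2.05 over the 39 genes. Proximal tubule genes then ran from -4.98 for Kap to -0.60 for Slc5a12, and their group was not the lowest. Their sum was 659.95, 769 and 1017 CPM in ILC1 pools and 762, 4327 and 4277 CPM in cNK pools, so ILC1 pool 3 lay below cNK pools 2 and 3 here. The ratio of means was 0.261, and the median log2 fold change of the 17 tested was -2.29. cNK pool 1 was the lowest cNK pool for all 18 genes, and for 7 of them it was the lowest of all 6 libraries. cNK pool 3 was the highest library for 15 and cNK pool 2 for 3.

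Length-scaled, the 3 most abundant proximal tubule genes were Gpx3, Kap and Miox, with means over 6 libraries of 622, 376 and 43.8 CPM per kilobase of exon. Gpx3, a glutathione peroxidase that the proximal tubule secretes into plasma, had 477, 536 and 691 CPM in ILC1 pools and 465, 2576 and 2019 CPM in cNK pools. Its cNK pool 1 lay below all ILC1 pools, and the log2 fold change (given with its standard error and edgeR's adjusted p here and in parentheses below) was -1.86 ± 0.62, adjusted p = 0.171. Kap, the androgen-regulated kidney protein, had 0.619, 52.8 and 55.4 CPM in ILC1 pools and 91.4, 563 and 833 CPM in cNK pools. ILC1 pool 1 held 14 counts of Kap where every other library held at least 1389, all cNK pools were above all ILC1 pools, and the log2 fold change was -4.03 ± 1.46, adjusted p = 0.204. Miox, which opens the ring of myo-inositol, had 14.4, 19.1 and 38.7 CPM in ILC1 pools and 20.3, 161 and 181 CPM in cNK pools, and here cNK pool 1 lay within the range of ILC1 (-2.62 ± 0.83, adjusted p = 0.146).

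The 4 genes without overlap were Kap and 3 transporters. Slc27a2 (chr2:126552407-126588243 on GRCm38), a fatty acid transporter and acyl-CoA synthetase, had 5.21, 10.9 and 10.5 CPM in ILC1 pools and 16.8, 92.3 and 119 CPM in cNK pools. No pool of one population overlapped the other, and its log2 fold change of -3.36 ± 0.76 had the lowest adjusted p of the 39 (0.0522). Slc22a6, the basolateral organic anion transporter, had 0.442, 4.31 and 4.51 CPM in ILC1 pools and 8.38, 46.02 and 62.97 CPM in cNK pools (-3.92 ± 1.03, adjusted p = 0.0869). Slc13a3, the sodium-dicarboxylate transporter whose promoter is shown above, had 0.177, 1.73 and 1.44 CPM in ILC1 pools and 3.54, 12.3 and 17.6 CPM in cNK pools (-3.55 ± 0.91, adjusted p = 0.0817). Both had cNK above ILC1 in every pool, and both held 10 counts or fewer in ILC1 pool 1. Slc22a8, a second organic anion transporter, had 0, 3.85 and 3.43 CPM in ILC1 pools and 1.82, 20.9 and 31.1 CPM in cNK pools. Its 0 counts in ILC1 pool 1 allow up to 0.133 CPM, and cNK pool 1 lay below ILC1 pools 2 and 3, so the populations overlapped (adjusted p = 0.312).

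In 5 other proximal tubule genes, singled out after their values were seen, the order of libraries was another. Slc34a1, the sodium-phosphate cotransporter of the brush border, had 75.3, 65.7 and 61.8 CPM in ILC1 pools and 58.7, 351 and 402 CPM in cNK pools. All ILC1 pools and cNK pool 1 lay within 58.7 to 75.3 CPM, and cNK pools 2 and 3 stood apart from them (-2.28 ± 0.68, adjusted p = 0.125). Slc5a2, the low-affinity glucose carrier of the early proximal tubule, had 9.499, 6.21 and 6.14 CPM in ILC1 pools and 4.08, 23.3 and 22.2 CPM in cNK pools (-1.47 ± 0.65, adjusted p = 0.301). The endocytic receptor megalin, Lrp2, had 5.35, 2.54 and 3.35 CPM in ILC1 pools and 1.38, 13.6 and 22.97 CPM in cNK pools, and its partner cubilin, Cubn, had 1.105, 0.5295 and 0.598 CPM in ILC1 pools and 0.5102, 3.38 and 4.096 CPM in cNK pools. In these 4 and in Slc5a12, a lactate carrier, ILC1 pool 1 was the highest ILC1 pool and cNK pool 1 the lowest of all 6 libraries. No adjusted p of these 5 was below 0.125.

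Within a library, the proximal tubule genes therefore did not keep 1 ratio. Per count of Slc34a1, Slc22a6 had 0.00587, 0.0656 and 0.07295 counts in ILC1 pools and 0.143, 0.131 and 0.157 in cNK pools, and no ILC1 pool reached a cNK pool. Kap per count of Slc34a1 was 0.00821, 0.804 and 0.897 in ILC1 pools and 1.56, 1.61 and 2.07 in cNK pools. Slc5a2 per count of Slc34a1 ran the other way, with 0.126, 0.0946 and 0.0994 in ILC1 pools, all above the 0.0696, 0.0664 and 0.0552 of cNK pools. These ratios were chosen after their values were seen and were not tested.

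The metabolic enzymes of the proximal tubule followed the same division between cNK pool 1 and the other cNK pools. Pck1 and Fbp1, enzymes of glucose synthesis, had log2 fold changes of -2.85 ± 0.80 and -2.29 ± 0.72. Acsm2, a medium-chain acyl-CoA synthetase, had 27.04, 25.7 and 32.7 CPM in ILC1 pools and 29.8, 177 and 212 CPM in cNK pools (-2.57 ± 0.69, adjusted p = 0.0925). Its cNK pool 1 lay inside the ILC1 range. Ass1, which makes argininosuccinate on the way to arginine, had 6.14, 5.68 and 10.8 CPM in ILC1 pools and 2.19, 23.1 and 28.5 CPM in cNK pools (-1.54 ± 0.84, adjusted p = 0.399). Ggt1, the brush-border gamma-glutamyltransferase, had 14.1, 4.91 and 49.7 CPM in ILC1 pools and 27.5, 63.3 and 87.4 CPM in cNK pools (-1.66 ± 0.82, adjusted p = 0.355), with ILC1 pool 3 inside the cNK range. Ttc36 had 2, 1 and 5 counts in ILC1 pools and 5, 22 and 31 in cNK pools and did not pass the filter on low counts.

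**Figure D3:**
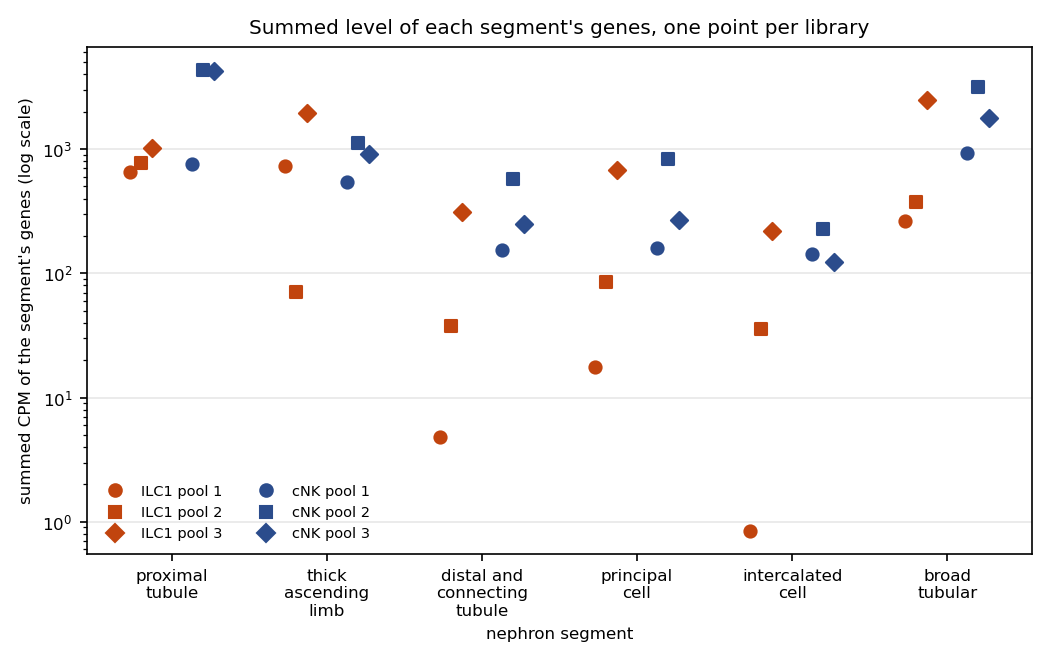
Summed CPM (log axis) of each segment group in each library, ILC1 pools left of cNK pools, with 1 point per library. Proximal tubule sums of all ILC1 pools lie between 660 and 1017 CPM, close to that of cNK pool 1, which lies at 762 CPM, while intercalated cell sums span 0.840 to 217 CPM in ILC1.

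The thick ascending limb gave no separation of the populations. Umod (chr7:119462711-119479282 on GRCm38) codes for uromodulin, the most abundant protein of normal urine, and had 495, 55.9 and 1449.6 CPM in ILC1 pools and 411, 887 and 707 CPM in cNK pools (-0.30 ± 0.94, adjusted p = 0.884). Slc12a1, the apical sodium-potassium-chloride cotransporter, had 241, 14.2 and 506 CPM in ILC1 pools and 135, 231 and 209 CPM in cNK pools (0.12 ± 0.97, adjusted p = 0.958). For both, ILC1 pool 3 was the highest and ILC1 pool 2 the lowest of the 6 libraries, so all cNK pools lay inside the ILC1 range. With standard errors of 0.94 and 0.97 on the log2 scale, a p above the threshold does not show that the levels were alike. Umod per count of Slc12a1 was 2.06, 3.94 and 2.86 in ILC1 pools and 3.05, 3.84 and 3.39 in cNK pools, a span of 1.92-fold over libraries whose Umod levels spanned 55.9 to 1449.6 CPM. Kcnj1, the potassium channel of this limb and of the collecting duct, had 25.6, 15.3 and 156 CPM in ILC1 pools and 63.96, 134 and 77.3 CPM in cNK pools (-0.77 ± 0.84, adjusted p = 0.661), with the same 2 ILC1 pools at the ends.

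Distal convoluted and connecting tubule genes were lowest in ILC1 pool 1 and highest in cNK pool 2. Calb1, the calcium-buffering calbindin and the most abundant of the 3, had 1.68, 32.3 and 203 CPM in ILC1 pools and 97.4, 400.5 and 189 CPM in cNK pools (-1.85 ± 1.35, adjusted p = 0.522). Slc12a3, the thiazide-sensitive sodium-chloride cotransporter, had 3.14, 5.05 and 101 CPM in ILC1 pools and 52.9, 149 and 55.4 CPM in cNK pools (-1.55 ± 1.26, adjusted p = 0.562). Pvalb, a calcium-binding protein of the early distal convoluted tubule, had 0, 10 and 195 counts in ILC1 pools and 86, 560 and 156 in cNK pools. In all 3, ILC1 pool 3 lay inside the cNK range.

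Of the 4 principal cell genes, 3 were nearly missing from 1 library. Aqp2 (chr15:99579055-99584547 on GRCm38), the water channel that vasopressin moves to the apical membrane, had 1, 613 and 6238 counts in ILC1 pools and 1255, 9927 and 2791 in cNK pools. In CPM this was 0.0442, 21.6 and 249 in ILC1 and 45.7, 377 and 112 in cNK, with a log2 fold change of -1.33 ± 1.76, adjusted p = 0.718. The single count of ILC1 pool 1 stood beside 11193 counts of Umod in the same library. Hsd11b2, which inactivates glucocorticoids and so protects the mineralocorticoid receptor, had 4, 682 and 4796 counts in ILC1 pools and 1609, 3988 and 1690 in cNK pools. Fxyd4, a regulator of the sodium pump, had 3, 109 and 1164 counts in ILC1 pools and 167, 1869 and 691 in cNK pools. Aqp3, the basolateral water channel that is also made by other epithelia and by some leukocytes, was the exception in ILC1 pool 1, at 390, 988 and 4783 counts in ILC1 pools and 1387, 5945 and 1552 in cNK pools. Adjusted p of the 4 lay between 0.668 and 0.833.

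Intercalated cell genes were low in the same library. Atp6v1g3, a subunit of the proton pump and the most abundant of the 3, had 0.574, 14.9 and 79.02 CPM in ILC1 pools and 52.7, 118 and 61.005 CPM in cNK pools (-1.58 ± 1.26, adjusted p = 0.555). Atp6v0d2, another subunit of that pump, had 0.265, 9.71 and 48.1 CPM in ILC1 pools and 35.9, 45.98 and 24.02 CPM in cNK pools. Slc26a4, the pendrin exchanger of chloride and bicarbonate, had 0, 318 and 2258 counts in ILC1 pools and 1477, 1701 and 982 in cNK pools. Its 0 counts in ILC1 pool 1 allow up to 0.133 CPM, where the other 5 libraries ranged over 11.2 to 90.03 CPM. Atp6v1g3 per count of Atp6v0d2 ran from 1.47 to 2.57 over the 6 libraries, with the ILC1 pool 1 value resting on 13 and 6 counts. Slc26a4 per count of Atp6v1g3 was 0, 0.752 and 1.14 in ILC1 pools and 1.02, 0.548 and 0.646 in cNK pools.

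Genes of tubular epithelium at large had their highest level in ILC1 pool 3 for 5 of the 8 and in cNK pool 2 for the other 3. Spp1, which codes for osteopontin and is also made by macrophages and activated lymphocytes, had 121, 213 and 1066 CPM in ILC1 pools and 442, 1431 and 742 CPM in cNK pools (-1.20 ± 0.86, adjusted p = 0.512). Fxyd2, the gamma subunit of the sodium pump, had 47.6, 73.4 and 654 CPM in ILC1 pools and 256, 1058 and 652 CPM in cNK pools. Wfdc2, a secreted protease-inhibitor-like protein, had 14.5, 18.004 and 159.8 CPM in ILC1 pools and 43.8, 198 and 112 CPM in cNK pools. Both were highest in cNK pool 2 and lowest in ILC1 pool 1. Cdh16, the cadherin of the kidney, had 41.8, 30.9 and 306 CPM in ILC1 pools and 127, 249 and 162 CPM in cNK pools, and Pax8, a transcription factor of kidney epithelium, had 1.02, 0.988 and 14.1 CPM in ILC1 pools and 3.75, 10.1 and 5.46 CPM in cNK pools. Epcam, an epithelial adhesion molecule, had 18.7, 25.4 and 153 CPM in ILC1 pools and 27.6, 126 and 59.7 CPM in cNK pools. The keratin pair Krt8 and Krt18, which assemble with each other, had log2 fold changes of -0.38 ± 0.89 and -0.54 ± 1.05. In all 8, ILC1 pool 3 was above cNK pools 1 and 3, and the lowest library was ILC1 pool 1 for 5 and ILC1 pool 2 for 3. Aqp1, the water channel of the proximal tubule and thin descending limb, had 0.309, 10.5 and 32.2 CPM in ILC1 pools and 19.8, 22.6 and 23.01 CPM in cNK pools, with cNK pools inside the ILC1 range (-0.85 ± 1.11, adjusted p = 0.714).

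The makeup of the nephron signal thus differed among libraries of 1 population. Proximal tubule genes made up 38.6%, 55.1% and 14.9% of the nephron counts in ILC1 pools and 27.5%, 41.6% and 55.4% in cNK pools. The thick ascending limb pair made up 42.98%, 5.02% and 28.6% in ILC1 pools and 19.7%, 10.8% and 11.9% in cNK pools. Its share ran over a wider range among ILC1 pools than among cNK pools. The 10 genes of the distal convoluted tubule, principal cell and intercalated cell summed to 23.2, 158 and 1206 CPM in ILC1 pools and 457, 1625 and 645 CPM in cNK pools. Per CPM of these 10, the proximal tubule sum was 28.4, 4.87 and 0.844 in ILC1 pools and 1.67, 2.66 and 6.63 in cNK pools.

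**Figure D4:**
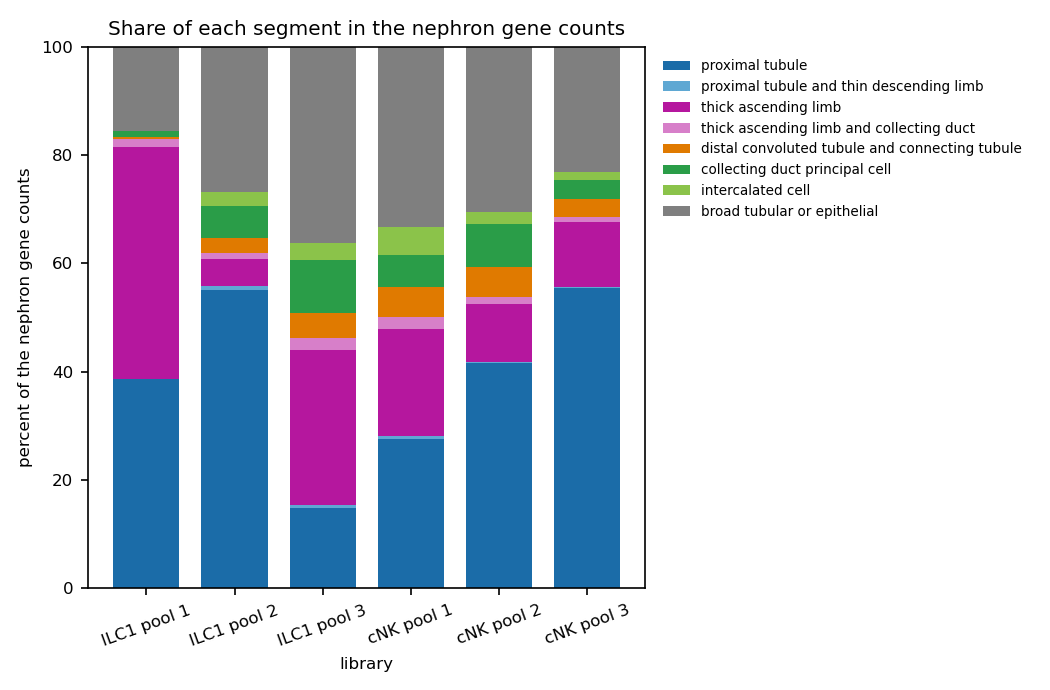
Share of the nephron counts (percent, stacked bars from 0 to 100) taken by each segment group in each library, ILC1 pools left of cNK pools. The thick ascending limb takes 43.0% in ILC1 pool 1 and 5.02% in ILC1 pool 2, where the proximal tubule takes 38.6% and 55.1%.

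ILC1 pools 1 and 2 had the 2 lowest sums of the 6 libraries, made up of different genes. Over the 39 genes with at least 10 counts in either, the log2 ratio of ILC1 pool 1 over ILC1 pool 2, on the log2(CPM + 0.5) scale, ran from -5.57 for Kap to 4.04 for Slc12a1, with a median of -0.43. The thick ascending limb pair was higher in ILC1 pool 1, with log2 ratios of 3.13 for Umod and 4.04 for Slc12a1. All 10 distal, principal and intercalated genes were lower there, with a median log2 ratio of -3.79. Among cNK pools, cNK pool 2 over cNK pool 1 was above 0 for all 40 genes, with a median of 2.16. Over all 40 genes, ILC1 pool 1 was the lowest library for 24, ILC1 pool 2 for 9 and cNK pool 1 for 7, and the highest library was ILC1 pool 3 for 12, cNK pool 2 for 13 and cNK pool 3 for 15.

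**Figure D5:**
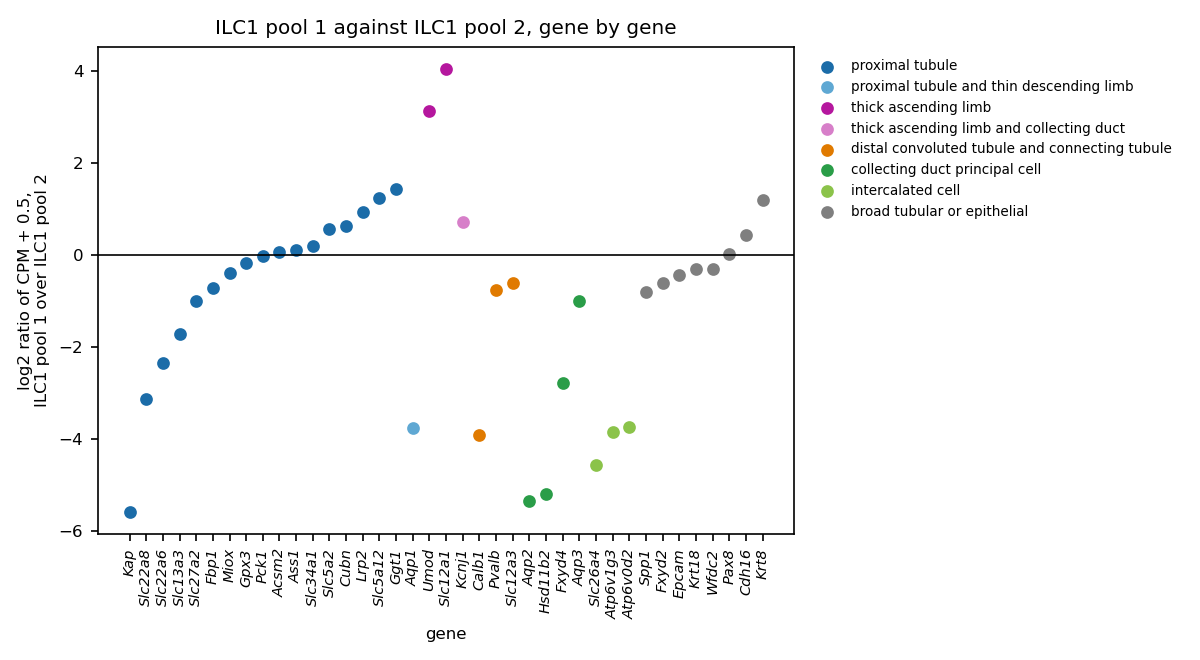
Log2 ratio of CPM + 0.5 in ILC1 pool 1 over ILC1 pool 2 (vertical axis) for each gene (horizontal axis, coloured by segment). Slc12a1 and Umod have the highest ratios, 4.04 and 3.13, and Kap has the lowest, -5.57.

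A wider list of 104 other nephron genes, 102 of them in the table and 93 tested, gave 0 higher in ILC1 (4.07% of all genes) and 1 higher in cNK by edgeR. That 1 gene is 1.08% of the 93, where 1.69% of all genes were called higher in cNK. The fold change lay below 0 for 88 of the 93, with a median of -1.03, and an unadjusted p under 0.05 was reached by 1 gene toward ILC1 (11.4% of all genes) and by 27 toward cNK (6.63% of all genes). The gene past the threshold was Mep1a, a subunit of the brush-border protease meprin, with 1.46, 1.8004 and 2.71 CPM in ILC1 pools and 5.03, 17.6 and 24.5 CPM in cNK pools (-3.24 ± 0.64, adjusted p = 0.0313). Its populations did not overlap. limma-voom called 0 of this list, DESeq2's Wald test called 25 higher in cNK (4.3% of all genes), and the edgeR call was lost when any of ILC1 pool 1, ILC1 pool 2, cNK pool 2 or cNK pool 3 was left out. Without ILC1 pool 3 edgeR called 18 higher in cNK (4.03% of all genes), and without cNK pool 1 it called 22 (1.81%).

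Among abundant genes of that list, Egf had the same lowest library as the thick ascending limb pair, and Rhcg the same as the intercalated cell genes. Egf, the growth factor precursor of the thick ascending limb and distal convoluted tubule, had 636, 14.9 and 771 CPM in ILC1 pools and 323, 316 and 361 CPM in cNK pools. ILC1 pool 2 was below the other 5 libraries, as it was for Umod and Slc12a1. Rhcg, the ammonia channel of intercalated and other collecting duct cells, had 0.133, 27.6 and 199 CPM in ILC1 pools and 75.3, 195 and 81.8 CPM in cNK pools. Pdzk1ip1, a membrane protein of tubule cells not assigned to 1 segment, had 7.95, 19.8 and 135 CPM in ILC1 pools and 34.8, 228 and 115 CPM in cNK pools. Rhcg held 3 counts in ILC1 pool 1.

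The 36 tested genes of the wider list that were assigned to the proximal tubule alone all had a fold change below 0, with a median of -2.35. Of the 37 tested genes set under several segments or none, 34 lay below 0 and 3 above. Among the 3 were Napsa, a protease of several tissues including the tubule (0.13 ± 0.19, adjusted p = 0.737), and Anpep (1.13 ± 0.43, adjusted p = 0.227). In both, every ILC1 pool lay above every cNK pool (22% of all genes). Anpep had 2.78, 1.73 and 4.47 CPM in ILC1 pools and 1.02, 1.25 and 1.16 CPM in cNK pools. It was the 1 gene of the wider list with an unadjusted p under 0.05 toward ILC1. The sum of the genes assigned to the proximal tubule was 208, 203.3 and 337 CPM in ILC1 pools and 172, 1139 and 1224 CPM in cNK pools. Of these 39 genes in the table, 9 were at 0 in ILC1 pool 1 and 4 in ILC1 pool 2. Some of the 9 were low everywhere: in any library Agmat held at most 5 counts, Slc22a13 at most 7, Slc22a19 at most 20 and Slc22a7 at most 29. Slc7a13, an amino acid carrier, had 1, 12 and 55 counts in ILC1 pools and 159, 438 and 526 in cNK pools, and Slco1a1, an organic anion transporter, had 0, 5 and 15 counts in ILC1 pools and 37, 289 and 326 in cNK pools. Slc7a13 and Slco1a1 were chosen after their values were seen. In Slc7a13 and Slco1a1, every cNK pool lay above every ILC1 pool, as in 10 of the 39 genes in the table. The 10 include Agmat, which did not pass the filter on low counts. Among all genes tested, 5.33% had this order. Gatm, also of the 39, had 41.2, 30.9 and 49.3 CPM in ILC1 pools and 12.1, 60.2 and 47.4 CPM in cNK pools (-0.27 ± 0.57, adjusted p = 0.820).

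On the wider list, 4 of the 5 principal cell genes and 4 of the 8 intercalated cell genes in the table were at 0 in ILC1 pool 1. Among these principal cell genes, Aqp4 was also at 0 in cNK pool 1, and Elf5 held at most 4 counts in any library. Avpr2, the 1 not at 0, held at most 2. Scnn1b and Scnn1g, subunits of the epithelial sodium channel, had no count in ILC1 pool 1. Scnn1a, the third subunit, which was not assigned to 1 segment, had 160, 191 and 1385 counts in ILC1 pools and 726, 1301 and 662 in cNK pools. Scnn1b had 0, 276 and 2033 counts in ILC1 pools and 882, 2104 and 883 in cNK pools, and Scnn1g had 0, 302 and 1776 counts in ILC1 pools and 822, 1642 and 746 in cNK pools. Foxi1, the transcription factor of intercalated cells, had 1, 180 and 941 counts in ILC1 pools and 509, 757 and 284 in cNK pools. Slc4a9, a bicarbonate transporter of intercalated cells, had 0, 129 and 798 counts in ILC1 pools and 556, 647 and 260 in cNK pools, and Insrr, an alkali-sensing receptor of the same cells, had 0, 50 and 338 counts in ILC1 pools and 298, 242 and 156 in cNK pools. Trpv5, the calcium channel of the distal convoluted and connecting tubule, had 0, 89 and 438 counts in ILC1 pools and 277, 405 and 222 in cNK pools. These 6 were chosen after their values were seen, and in each the 5 other libraries held at least 50 counts. Other genes had counts there: Hepacam2, listed with the intercalated cell, had 345, 503 and 1484 counts in ILC1 pools and 514, 699 and 336 in cNK pools. Tmem213, listed with the same cell, had 23, 90 and 632 counts in ILC1 pools and 284, 1167 and 496 in cNK pools, and Cldn8, a claudin of the distal tubule and collecting duct, had 83, 247 and 2300 counts in ILC1 pools and 1106, 2223 and 992 in cNK pools.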

How the data were processed

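RNA of 3 ILC1 and 3 cNK pools was sequenced. The authors deposited whole-number counts of reads per gene, not normalized, plus an averaged signal per population (the deposited mean columns), which was not used. Per the submitters' processing notes, the tools were STAR 2.6.1 after Trimmomatic 0.38, with DESeq, DESeq2 1.30.0 and R 4.03, on build GRCm38. How reads were counted, and whether by strand, is not given in the sources used here, so reads of overlapping genes and of near-identical copies (the Acsm family, keratin pseudogenes) are uncertain.

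The counts were tested with edgeR 4.0.16 in R 4.3.3 (TMM scaling, filterByExpr by group, robust quasi-likelihood fit on population alone, Benjamini-Hochberg adjustment at 0.05 over 16144 genes), after the fit had been tested on simulated data. DESeq2 1.42.0 and limma-voom (limma 3.58.1) were alternatives. A log2 fold change is ILC1 over cNK, with its SE from the F statistic, and levels are CPM over the library total. Lengths and gene positions are from GENCODE M21. Libraries held 22633440 to 28327265 counts, and a count of 0 allows up to 3 counts. Intervals and floors cover counting error only, since PCR copies are not independent molecules.

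The genes, lists and tests were chosen with earlier results of these data known. Named genes were the 3 proximal tubule genes of highest length-scaled level, the gene of highest level in each other segment, those past the threshold, and on the wider list the 4 of highest mean CPM, of which 1 is not reported here. Other genes were named after their values were seen. Ratios, promoters and motifs were also chosen after the values were seen. Alternatives were other scalings, filters and thresholds, a replicate block, and leaving out pools.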

Additional observations from a re-analysis of the deposited data

How the results depend on the processing

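DESeq2's size factors, upper-quartile scaling, limma-voom, no low-count filter, a filter at 1 CPM in 3 libraries and an adjusted p of 0.01 kept the count of nephron genes called in either direction at 0. The count higher in cNK was 9 with DESeq2's Wald test (4.3% of all genes), which gave Slc12a3 no adjusted p. It was 9 without both ILC1 pool 3 and cNK pool 2 (2.67% of all genes). Without both pools numbered 1, an alternative chosen after seeing the data, it was 15 (2.24% of all genes). Leaving out 1 pool at a time gave 0 to 11, where 0.551% to 4.03% of all genes were called higher in cNK, against 1.69% with every library. On the wider list, where 1 was called higher in cNK, the count was 25 with DESeq2's Wald test, 0 with limma-voom (1.75% of all genes) and 0 at an adjusted p of 0.01. It was 13 without both ILC1 pool 3 and cNK pool 2 and 29 without both pools numbered 1. With 1 pool left out it was 0 to 22. The shares of all genes for DESeq2 and for left-out pools are those just given. The median log2 fold change of the nephron genes ran from -2.92 to -1.0 when 1 pool was left out, and the ratio of summed CPM from 0.223 to 0.632. No direction of these summaries reversed, and the cause of the differing counts was not tested.

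The deviations of pools of the same number from their group means had correlations of 0.525, -0.127 and 0.0588 over 16144 genes, so the numbers were not shown to pair the populations. With the pool number as a replicate block, 3 nephron genes (Slc22a6, Slc13a3 and Slc27a2) and 11 genes of the wider list were called higher in cNK, where the block raised the share of all genes called in that direction to 4.18%, against 1.69% without it. ILC1 pool 3 correlated best with cNK pool 2 (0.591), not with its own number.

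In ILC1 pool 1, 10 nephron genes had under 10 counts and 3 were at 0, so their values there carry a large counting error. Its total of 22633440 counts was the lowest of any library. In cNK pool 3, with 24899746 counts, 0 nephron genes had under 10. The part of depth in these low counts was not tested. Each group held 3 pools, and their sums differed 4.90-fold within ILC1 and 3.75-fold within cNK. The lowest adjusted p of a nephron gene by edgeR was 0.0522, and the part of that spread in it was not tested.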

Other observations

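Outside both nephron lists, 9535 genes with a proper symbol and a mean of at least 5 CPM were ranked by the likeness of their profile over the 6 libraries to that of the summed nephron genes. The measure was the root mean square difference of log2(CPM + 0.5), centred on each gene's mean. The closest was Cth, the enzyme that makes cysteine from cystathionine, at 0.0911, with 1.68, 1.38 and 7.54 CPM in ILC1 pools and 3.13, 12.3 and 10.6 CPM in cNK pools. Gipc2, a PDZ-domain protein, followed at 0.1304, with 2.25, 2.37 and 13.1 CPM in ILC1 pools and 5.25, 17.9 and 14.7 CPM in cNK pools, and Hpn, the membrane protease hepsin, at 0.146, with 8.79, 5.86 and 33.3 CPM in ILC1 pools and 11.4, 40.6 and 35.8 CPM in cNK pools. The next 7 were Adhfe1, Cryz, Ndrg1, Sult1d1, Rab17, Cyb561 and the mitochondrial gene mt-Atp8, at 0.181 to 0.231. mt-Atp8 had 31.9, 30.8 and 107 CPM in ILC1 pools and 69.1, 199 and 129 CPM in cNK pools.

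Slc14a2, which codes for the urea transporter of the inner medullary collecting duct, had 1, 0 and 13 counts in ILC1 pools and 5, 382 and 1 in cNK pools, so that cNK pool 2 held nearly all of its counts. Keratin 19 (Krt19), a keratin of simple duct epithelium, had 4, 0 and 76 counts in ILC1 pools and 2, 14 and 9 in cNK pools, and ILC1 pool 3 held most of them. Napsa, an aspartic protease of kidney and lung that leukocytes also make, had 90.97, 91.996 and 108 CPM in ILC1 pools and 68.5, 67.1 and 90.4 CPM in cNK pools. These 3 genes were chosen after their values were seen.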
